A study of Mus musculus with 10 samples.

Results

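Cxcr1 and Cxcr2, the mouse genes for the chemokine receptors that the drug SX682 blocks, were followed through lung tumours treated with that drug, with SHP099, with both or with vehicle. They are 2 of the 32285 genes of a single-cell RNA matrix and of 55341 genes in bulk RNA tables. They were taken by gene symbol and by no rule on their values, but earlier results of these data were known by then. Tumours grew in the lungs of syngeneic mice given KP cells, a mouse lung tumour line, intravenously, and treatment lasted 11 days; the mouse strain is not named in the labels. In the single-cell assay, live cells of 3 mice per treatment were tagged, pooled and captured together, which gave 12 mice in 4 captures: vehicle, SHP099 (an inhibitor of the phosphatase SHP2), SX682, and SHP099 with SX682 (the combination). In the bulk assay, Epcam+ cells sorted from nodules gave 3 SHP099 and 3 vehicle libraries. All groups carried tumours of the same line, and no tumour-free mouse is among them. Each treatment was 1 capture, so treatment and capture cannot be told apart in any single-cell comparison.

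CXCR2 and CXCR1 are G protein-coupled receptors that sense CXC chemokines carrying an ELR motif, among them the products of Cxcl1, Cxcl2, Cxcl3 and Cxcl5. Ligand binding releases Gαi from its βγ partners, which act on PI3Kγ, phospholipase Cβ and Rac to drive migration, and receptor kinases and arrestins then switch the receptor off. In mice CXCR2 is the main receptor that draws neutrophils out of marrow and into inflamed lung and tumour, and it opposes CXCR4, which holds neutrophils in the marrow.

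The 44986 cells had 2289 to 6399 cells per mouse and a median of 1440 to 4838 unique transcripts (UMIs) per cell, lower in the SHP099 and combination captures than in the others. The authors' 33 clusters were used as deposited and named here from fixed marker lists. Clusters 28 to 33 are the 6 states of the authors' neutrophil table, written N1 to N6 (9540 cells, 179 to 1373 per mouse), and each held at least 8 of 10 neutrophil markers. Cluster 26 (3628 cells) held 6 of 6 alveolar macrophage markers and cluster 25 (2390 cells, led by Gpnmb) 4 of 6 macrophage markers. Of the cell barcodes, 1009 occurred in more than 1 capture and 0 in 2 mice of the same capture. Levels are UMIs of the gene per 1000000 UMIs of the summed cells (CPM), unscaled; fold changes come from the fit described under the processing, which scales and weights the sums, so they can differ from the ratio of means.

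Both genes lie on chromosome 1 (mm10), Cxcr2 (ENSMUSG00000026180.8) at 74153989 to 74161246 on the plus strand and Cxcr1 (ENSMUSG00000048480.5) at 74191785 to 74194631 on the minus strand. They face each other across 30538 bases with 0 annotated genes between them. No exon of another gene overlaps either of them, and the longest run of bases shared by their transcripts is 14. Promoter bases of each gene are shown because the receptors were high in different cells despite this shared locus. They come from the RefSeq promoter table (GRCm38.p6), cut to bases upstream of the gene's first base in both GENCODE and RefSeq, and run 5′ to 3′ on the gene's own strand, with the only motif match in capitals. The Cxcr2 window is chr1:74153744-74153988 (245 bases, 54.3% G or C) and the Cxcr1 window is chr1:74194709-74194881 on the minus strand (173 bases, 51.4% G or C). The RefSeq model of Cxcr1 begins further upstream than the position given above, so the bases directly before that position are not among those shown.
Cxcr2: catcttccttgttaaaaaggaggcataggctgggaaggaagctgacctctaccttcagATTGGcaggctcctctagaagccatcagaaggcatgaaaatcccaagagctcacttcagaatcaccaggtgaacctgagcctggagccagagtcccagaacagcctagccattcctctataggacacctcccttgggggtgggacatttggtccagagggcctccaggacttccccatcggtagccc
Cxcr1: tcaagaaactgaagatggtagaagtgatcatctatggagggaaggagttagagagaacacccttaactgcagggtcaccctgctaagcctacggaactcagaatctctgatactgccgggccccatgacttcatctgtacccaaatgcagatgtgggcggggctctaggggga
Both strands were searched for GAGGAAG (a PU.1-type site), TTGCNNAA (a C/EBP-type site), CCAAT and TATAAA. The Cxcr2 window held 1 match, CCAAT on the opposite strand, 187 bases before its end, and the Cxcr1 window held none. Of 32851 promoters in the table, 33.5% held CCAAT, 10.3% GAGGAAG, 9.43% TTGCNNAA and 12.2% TATAAA in a window of 245 bases. In a window of 173 bases the shares were 23.8, 7.01, 7.13 and 8.16% in the same order.

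Pooled over the 12 mice, most Cxcr2 transcripts were in neutrophils, and most Cxcr1 transcripts in the alveolar macrophage-like cluster 26. Neutrophils were 21.2% of cells and gave 6.88% of all UMIs, but 60.3% of the 4630 Cxcr2 UMIs. Cluster 26 was 8.065% of cells and gave 6.83% of all UMIs, but 68.7% of the 1688 Cxcr1 UMIs. Neutrophils gave only 9.95% of the Cxcr1 UMIs, and cluster 26 only 6.09% of the Cxcr2 UMIs. By treatment the shares varied, given as values with no test. Neutrophils held 465 of 1121 Cxcr2 UMIs of vehicle mice (41.5%), where the tumour epithelium-like cluster 21 held 304 (27.1%). They held 81.4% of those of SHP099 mice, 55.6% with SX682 and 60.5% with both drugs. Cluster 26 held 137 of 269 Cxcr1 UMIs of vehicle mice (50.9%) and 72 of 145 of SX682 mice (49.7%), but 77.75% with SHP099 and 73.03% with both drugs. States and clusters are compared here as a description, with no test, because their cells were clustered on the same counts.

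Outside neutrophils, Cxcr2 was highest in cluster 21, tumour epithelium-like cells led by Lypd8, among clusters measured in at least 3 mice, at 40.2 ± 16.3 CPM (SD, n = 11 mice with at least 20 cells). It stood at 31.25 ± 31.4 CPM in the monocyte-like cluster 13 (n = 11, median 21.4, highest mouse 114). In cluster 26 it stood at 22.4 ± 10.95 CPM (n = 12, median 22.6), so the order of these clusters differed between mean and median. B cells, which are not known to use CXCR2, stood at 8.84 ± 6.65 CPM (n = 12), and the other tumour cluster, 23, at 6.30 ± 2.96 CPM. Cells of any type pick up free RNA in a droplet assay, and S100a8 and S100a9, high in neutrophils, served as a rough gauge of it. The pair stood at 5635 CPM in cluster 21 and 3440 CPM in cluster 13. Whether cells of these clusters make it themselves was not tested. Neutrophils had 3.56 Cxcr2 UMIs per 1000 UMIs of this pair, but their states ran from 0.882 in N4 to 11.3 in N5. Cluster 21, at 6.25 (exact 95% interval 5.78 to 6.75, counting error only), lay within that range. Cluster 13 had 4.36 to 6.95 by the same interval, and B cells 4.16 to 7.11, also within the range of the states. Cluster 26 had 28.2 (24.96 to 31.6). The highest value was 30.2 (16.1 to 51.6) in the T cell-like cluster 8, from 13 Cxcr2 UMIs, and clusters 14 and 5 had 11.25 and 10.9, from 17 and 15 UMIs. The part of free RNA in the levels of these clusters was not tested.

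Cxcr1 stood at 80.1 ± 50.01 CPM in cluster 26 (SD, n = 12), where the 12 mice ran from 14.2 to 149 CPM with a median of 83.7. The large spread was between treatments, as given further on. Next came N5 at 36.4 ± 48.0 CPM (n = 9), N3 at 20.7 ± 14.3 and N6 at 19.96 ± 25.2 (both n = 12), and cluster 25 at 12.5 ± 6.70. The order of these 3 states rests on few UMIs: N5 was above N3 in 3 of 9 mice and above N6 in 4 of 9, and N3 above N6 in 6 of 12. Without combination mouse 1, at 145.3 CPM from 10 UMIs, N5 had 22.8 ± 27.1 CPM (n = 8). In cells thinned to 1000 UMIs, 7.48% of cluster 26 had a Cxcr1 UMI, against 0.02255% of B cells; unthinned, the shares were 19.85% (median 2860 UMIs per cell) and 0.0434% (median 1010). Per 1000 UMIs of the alveolar macrophage markers, cluster 26 had 17.2 Cxcr1 UMIs, cluster 25 had 8.78, and N3, N5 and N6 had 405, 615 and 415. N1, N2 and N4 had 54.2, 65.2 and 10.2, from 9, 6 and 1 Cxcr1 UMIs. The part of free RNA in the Cxcr1 of neutrophils was not tested.

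**Figure D1:**
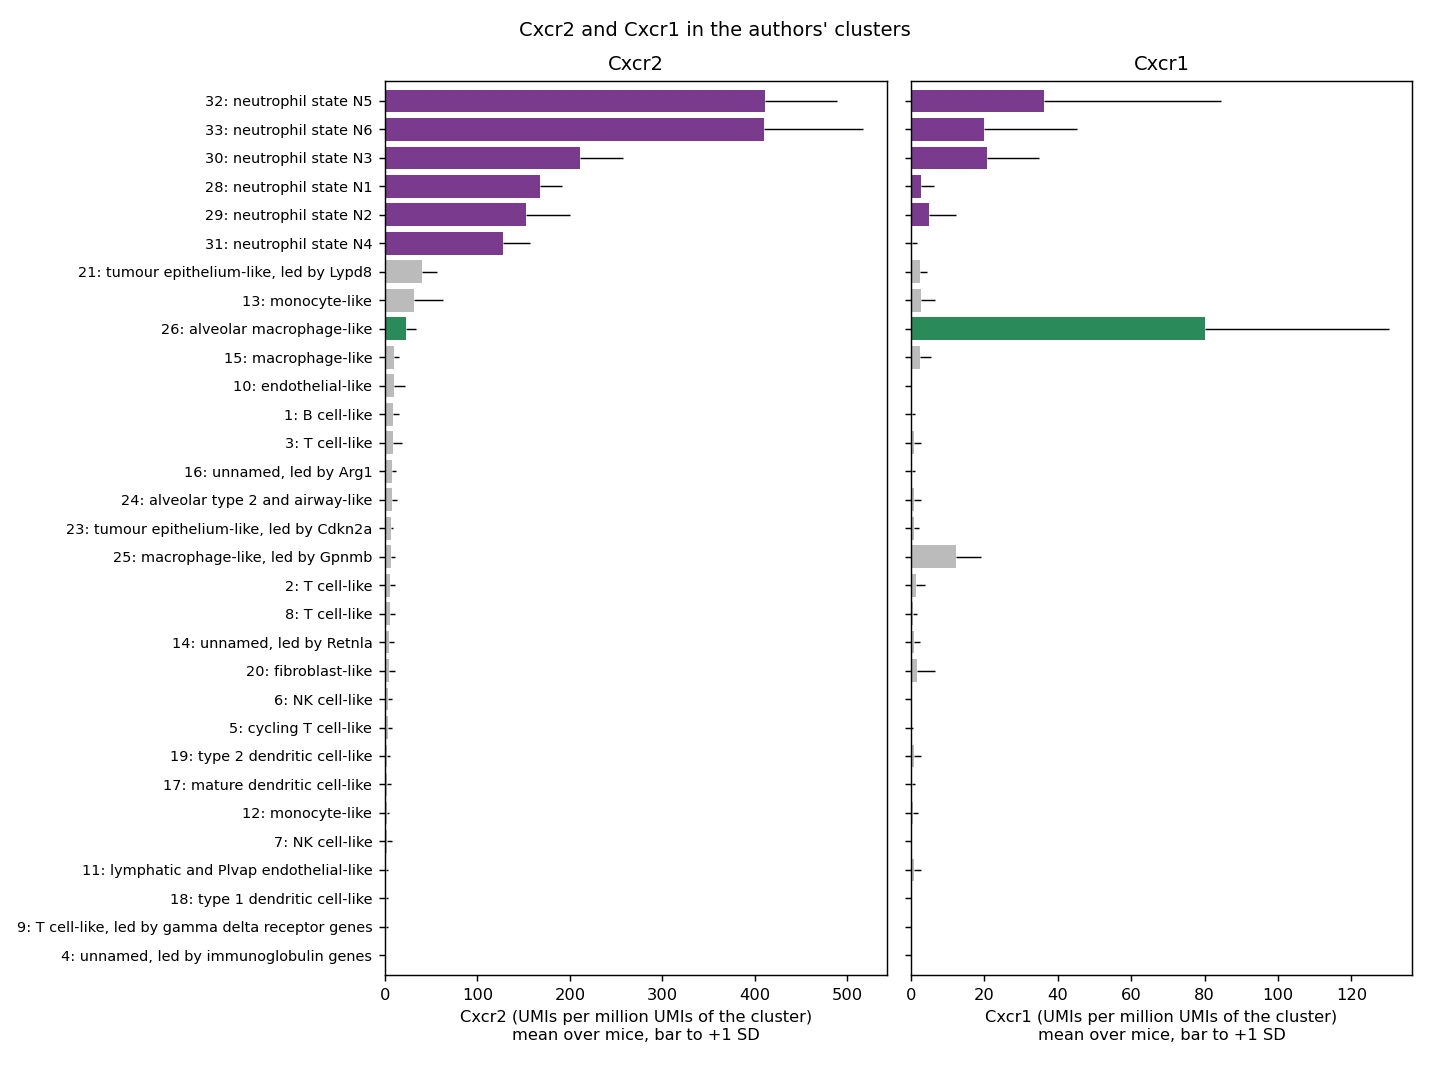
Mean Cxcr2 (left) and Cxcr1 (right) level in the authors' clusters with at least 3 mice, in CPM within the cluster, averaged over mice with at least 20 cells; lines reach 1 SD above the mean. Neutrophil states are purple and alveolar macrophage-like cells green: Cxcr2 is led by N5 and N6 at 411 and 410 CPM, and Cxcr1 by cluster 26 at 80.1 CPM.

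Among neutrophil states, Cxcr2 was highest in N5 and N6. N5, led by Cxcl3, Slfn1 and Trem1, had 411 ± 77.5 CPM (SD, n = 9 mice with at least 20 cells, 295 to 538), and N6, led by Retnlg and Stfa2l1, had 410 ± 107 CPM (n = 12, 222 to 631). N3, led by Acod1 and Ccl3, had 210.5 ± 46.9 CPM. N1, led by Prss2 and Il1r2, had 167 ± 24.2 CPM, N2, led by Il23a and Il1a, had 153 ± 47.3, and N4, led by the granule genes Camp, Ngp and Lcn2 of young neutrophils, had 127 ± 29.8 (each n = 12). N5 was above N6 in 5 of 9 mice, so these neighbours did not differ beyond their spread. N6 was above N3 in 12 of 12 mice, by 199.6 ± 111 CPM (SD of the difference). N3 was above N1 in 10 of 12, by 43.2 ± 39.7 CPM. N1 over N2 and N2 over N4 held in 8 of 12 mice each, with mean differences smaller than their SD. N1 was above N4 in 10 of 12 mice, by 40.0 ± 34.5 CPM.

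The share of cells with a Cxcr2 UMI gave the same order in cells thinned to 1000 UMIs, but not unthinned. Thinned, it was 36.6% in N5, 31.8% in N6, 17.9% in N3, 15.8% in N1, 13.02% in N2 and 11.01% in N4, against 0.920% in B cells. Thinning left out 684 of 868 N5 cells and 1173 of 1658 N6 cells, which have few UMIs (median 746 and 798). Unthinned, N5 had 27.4%, N6 29.1%, N3 (median 1730 UMIs) 29.9%, N4 (median 1772) 20.9% and B cells 1.06%.

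**Figure D2:**
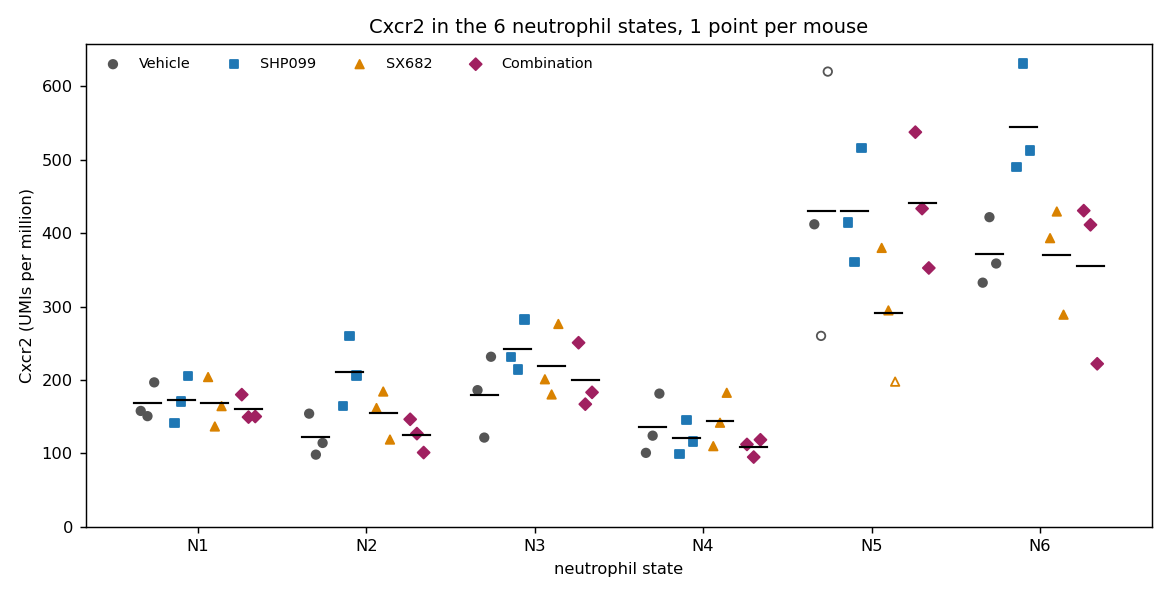
Cxcr2 level in each neutrophil state, 1 point per mouse in CPM, by treatment; short lines are treatment means and hollow points mark mice with fewer than 20 cells of the state. N5 and N6 lie above N1 to N4 in every treatment mean.

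Cxcr1 in neutrophils sat in the states high in Cxcr2 and in N3. Of 168 UMIs, N3 gave 94, N6 34, N5 24, N1 9, N2 6 and N4 only 1. In pooled cells the level was 33.6 CPM in N5 (exact 95% interval 21.6 to 50.03), 22.4 in N6 (15.5 to 31.3) and 21.4 in N3 (17.3 to 26.1), against 3.23 in N1 (1.48 to 6.14), 3.27 in N2 (1.20 to 7.11) and 0.535 in N4 (0.0136 to 2.98). These intervals cover counting error only. Of 9540 neutrophils, 2190 had a Cxcr2 UMI, 135 a Cxcr1 UMI and 54 both. Cxcr2 was seen in 40.0% of the cells with Cxcr1, which had a median of 1271 UMIs, and in 22.96% of all neutrophils, with a median of 1085. In cluster 26, 5.69% of the 720 cells with Cxcr1 had a Cxcr2 UMI, and 5.87% of all its cells did. The shares were alike although the depth was not, with medians of 4266 and 2860 UMIs. These shares were not brought to 1 depth.

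Genes with the most similar patterns were sought by Pearson's r of log2 levels, given as a description with no p. Over 69 sums of a mouse and a state, which share mice and depth, the highest r with Cxcr2 among 2315 genes was for Srgn (0.881), Fgl2 (0.877), Smox (0.872), Btg1 (0.862) and Rnf149 (0.858). Srgn encodes serglycin, the core of granule proteoglycans, and stood at 9257 CPM in N4 and 24150 in N5. The lowest r was for Rpsa (-0.853), Ppia (-0.848) and Rpl32 (-0.847); Rpsa and Rpl32 encode ribosomal proteins, and Rpl32 was at 1240 CPM in N4 and 293 in N5. Over the 33 clusters, Cxcr2 was most like Cxcl3 (0.920), which encodes a CXCR2 ligand, then Nlrp12 (0.914), G0s2 (0.913), Il1rn (0.910) and Cwc25 (0.908). Cxcl3 stood at 2616 CPM in N5, which with N6 had the most Cxcr2, and at 17.2 CPM in cluster 26. Cxcr1 over clusters was most like Rufy4 (0.906), then Arsg (0.799), Cstb (0.796), Fth1 (0.779) and Atp6v1e1 (0.771), among 15183 genes. Rufy4 (ENSMUSG00000061815.11) is the neighbour of Cxcr2 on its other side, on chromosome 1 at 74125541 to 74148223 on the plus strand, 5765 bases before Cxcr2. Of its 691 UMIs 489 came from cluster 26, where it had 37.5 CPM, against 10.55 in N6.

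In neutrophils as a whole, Cxcr2 did not pass the test in any comparison of treatments. Vehicle mice 1 to 3 had 228, 175 and 224 CPM, SHP099 mice 225, 228 and 254, SX682 mice 228, 193 and 196, and combination mice 227, 186 and 179. The groups overlapped, and the 12 mice lay between 175 and 254 CPM. The log2 fold change against vehicle was 0.04 ± 0.14 for SHP099 (SE, edgeR adjusted p = 0.902), -0.17 ± 0.15 for SX682 (adjusted p = 0.801) and -0.20 ± 0.14 for the combination (adjusted p = 0.469). The combination gave -0.24 ± 0.14 against SHP099 (adjusted p = 0.549) and -0.03 ± 0.14 against SX682 (adjusted p = 0.951), and the interaction of the 2 drugs was -0.07 ± 0.20 (adjusted p = 0.950). The same tests called 13.1% of 7477 genes for SHP099, 0.508% for SX682 and 6.45% for the combination against vehicle. They called 1.18% for the combination against SHP099, 3.72% against SX682 and 1.77% for the interaction. Of neutrophils thinned to 1000 UMIs, 16.7 ± 2.14% of vehicle cells had a Cxcr2 UMI, and 18.8 ± 0.989% did after SHP099, 17.55 ± 1.70% after SX682 and 16.3 ± 2.36% after the combination (SD, n = 3). No difference was detected (exact permutation over 15400 partitions of the mice, p = 0.412, or 0.511 adjusted over 3 shares).

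The states highest in Cxcr2 made up different shares of the neutrophils by treatment, given here as values with no test. N5 was 4.84 ± 1.56% of vehicle neutrophils, 10.9 ± 1.96% after SHP099, 6.04 ± 2.94% after SX682 and 11.7 ± 2.65% after the combination. N6 was 30.05 ± 12.01, 13.6 ± 2.88, 21.6 ± 10.95 and 8.31 ± 2.76% in the same order, and N3 was 8.74 ± 1.12, 23.5 ± 2.26, 18.4 ± 9.08 and 30.1 ± 5.63%. With the same number of cells of each state drawn per mouse, 163 in all, Cxcr2 still passed in no comparison.

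Within states, 0 of 18 tests of Cxcr2 against vehicle passed in edgeR (2 at an unadjusted p under 0.05), and 0 passed in DESeq2 of the 16 for which it gave an adjusted p. The closest was N6, where SHP099 mice had 490, 631 and 513 CPM and vehicle mice 333, 422 and 359. The groups did not overlap, and the log2 fold change was 0.52 ± 0.22 (SE, adjusted p = 0.0938). N2 also had groups that did not overlap, at 164.6, 260 and 206 against 154, 98.3 and 114 CPM, or 0.58 ± 0.26 (SE, adjusted p = 0.191). In the other state contrasts against vehicle the groups overlapped. For 3 mice against 3, full separation gives an exact permutation p of 0.1 at the smallest, so it is weak evidence by itself. The background of called genes for SHP099 against vehicle was 8.29% in N1, 7.14% in N2, 8.56% in N3, 3.51% in N4, 3.15% in N5 and 19.7% in N6. For SX682 it was 0.219, 0.555, 0.442, 0.045, 0.287 and 1.02%, and for the combination 4.07, 3.73, 2.12, 0.81, 0.86 and 4.91%, in the same order of states. With 14 to 448 cells per mouse and state, SEs of Cxcr2 against vehicle ran up to 0.40 on the log2 scale (N5, SX682, with a log2 fold change of -0.61).

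Cxcr1 in neutrophils was highest after the combination. Combination mice had 21.1, 17.9 and 24.7 CPM (27, 28 and 30 UMIs), all above the SX682 mice at 4.23, 7.01 and 6.99 CPM (4, 10 and 2 UMIs). Vehicle mice had 16.6, 6.19 and 5.89 CPM (20, 4 and 2 UMIs) and SHP099 mice 11.2, 6.09 and 13.6 CPM (18, 10 and 13 UMIs). The combination exceeded SX682 by 1.83 ± 0.41 (log2, SE, edgeR adjusted p = 0.0143), higher in 3 of 3 mice. The call was lost without SX682 mouse 1, SX682 mouse 2 or combination mouse 3 (adjusted p up to 0.0909). No other comparison passed: -0.37 ± 0.42 for SHP099 (adjusted p = 0.627), -1.100 ± 0.50 for SX682 (adjusted p = 0.478) and 0.73 ± 0.37 for the combination (adjusted p = 0.280) against vehicle. The SHP099 value has the opposite sign to the means, 10.3 ± 3.82 and 9.54 ± 6.07 CPM, and without vehicle mouse 1, which holds 20 of the vehicle UMIs, it was 0.61. Against SHP099 the combination gave 1.099 ± 0.33 (adjusted p = 0.142), and the interaction was 2.20 ± 0.60 (adjusted p = 0.0723). With all detected genes tested, these 2 passed (adjusted p = 0.0317 and 0.0131).

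The share of neutrophils with a Cxcr1 UMI at 1000 UMIs was 1.97 ± 0.671% in combination mice, against 0.459 ± 0.571% in vehicle mice, 0.640 ± 0.0187% after SHP099 and 0.524 ± 0.145% after SX682 (SD, n = 3). The exact permutation test gave p = 0.0196, or 0.0586 adjusted over 3 shares, and 0.482 and 0.551 adjusted at 500 and 1500 UMIs per cell. Cells with both receptors were 0.247, 0.2405, 0.152 and 0.462% of vehicle, SHP099, SX682 and combination neutrophils (exact adjusted p = 0.511). Most of the Cxcr1 of combination neutrophils was in N3, with 54 of 85 UMIs. Pooled N3 cells had 30.6 CPM after the combination, 31.6 in vehicle (11 UMIs), 15.8 after SHP099 and 7.86 after SX682 (7 UMIs). The pooled vehicle value rests mostly on mouse 1. Vehicle mice 1 to 3 had 51.7, 0 and 21.1 CPM in N3 (10, 0 and 1 UMIs). Combination mice had 26.3, 32.7 and 32.6 CPM (15, 18 and 21 UMIs). N3 was 30.1% of combination neutrophils and 8.74% of vehicle ones, as given above. The part of this share in the Cxcr1 of combination neutrophils was not tested. Alveolar macrophage markers in neutrophils summed to 47.5 ± 22.6 CPM in vehicle mice, 40.8 ± 16.4 after SHP099, 62.7 ± 16.95 after SX682 and 61.6 ± 20.9 after the combination. Their part in the Cxcr1 of neutrophils was not tested.

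**Figure D3:**
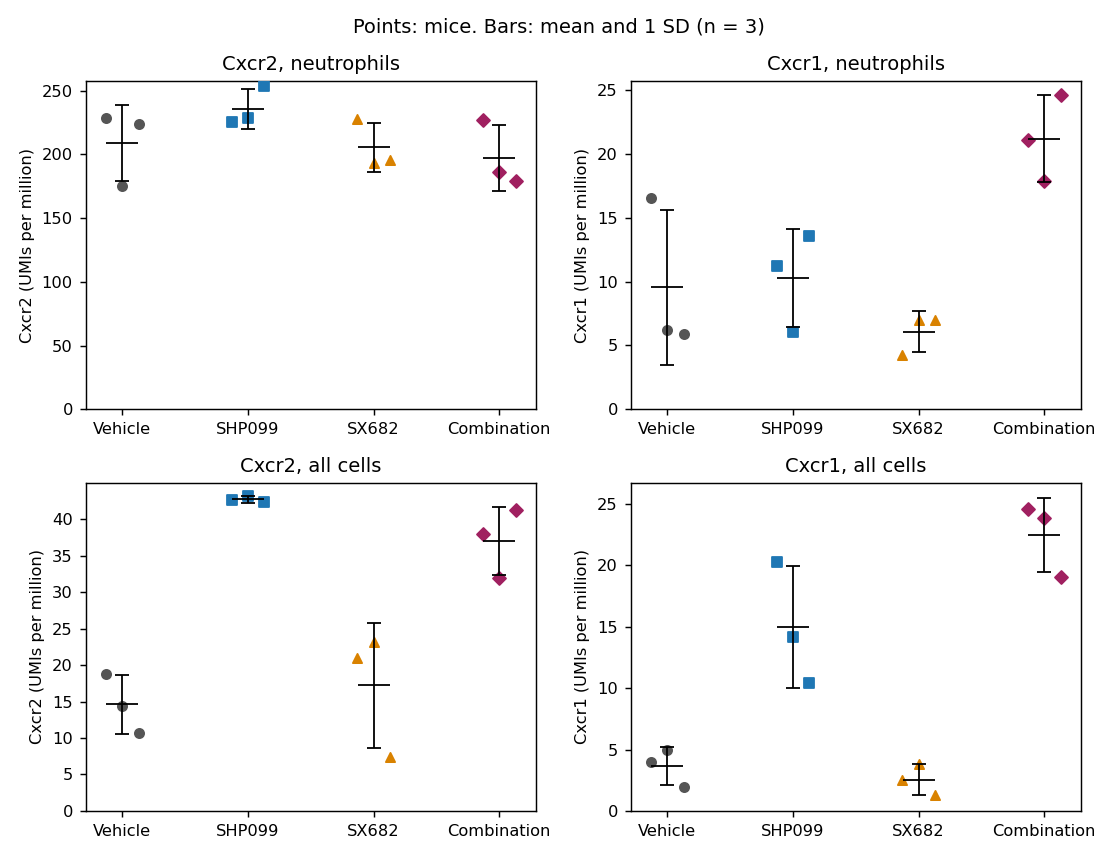
Cxcr2 (left) and Cxcr1 (right) per mouse in neutrophils (top) and in all cells of the mouse (bottom), in CPM; bars give the mean and 1 SD of 3 mice. Neutrophil Cxcr2 lies between 175 and 254 CPM in all groups, while in all cells SHP099 and combination mice lie above vehicle and SX682 mice for both genes.

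Cxcr1 in alveolar macrophage-like cells (cluster 26) moved with both drugs, in opposite directions; this cluster was chosen for testing after its high level was seen. SHP099 mice had 130, 124 and 109 CPM (166, 117 and 56 UMIs) and vehicle mice 52.1, 64.6 and 31.4 CPM (61, 62 and 14 UMIs). SX682 mice had 20.6, 28.1 and 14.2 CPM (21, 43 and 8 UMIs), and combination mice 149, 136 and 103 CPM (219, 291 and 102 UMIs). SX682 mice lay below all vehicle mice, and SHP099 and combination mice lay above them. Against vehicle, Cxcr1 rose by 1.24 ± 0.19 after SHP099 (log2, SE, edgeR adjusted p = 0.000153) and by 1.32 ± 0.18 with the combination (adjusted p = 6.85e-05), higher in 3 of 3 mice each. It fell by 1.24 ± 0.24 after SX682 (adjusted p = 0.0110), lower in 3 of 3 mice. That fall lost its call without vehicle mouse 1 (adjusted p = 0.0786) or vehicle mouse 2 (adjusted p = 0.0847).

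The fall seen with SX682 alone was not seen on top of SHP099. The combination stood 2.56 ± 0.20 above SX682 (log2, SE, edgeR adjusted p = 1.04e-07) and 0.08 ± 0.16 from SHP099 (adjusted p = 0.954). The interaction, which asks whether the SHP099 effect differed with and without SX682, was 1.32 ± 0.29 (adjusted p = 0.0376). It did not pass in 9 of 12 fits that left out 1 mouse, with adjusted p from 0.0116 to 0.154. The same fits called 8.75% of 7681 genes for SHP099, 0.885% for SX682 and 7.95% for the combination against vehicle. They called 0.195% for the combination against SHP099, 8.97% against SX682 and 0.586% for the interaction.

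Shares of cluster 26 cells with a Cxcr1 UMI followed the levels. At 1000 UMIs they were 4.04 ± 0.721% in vehicle mice, 10.8 ± 1.29% after SHP099, 1.25 ± 0.279% after SX682 and 11.2 ± 1.53% after the combination (SD, n = 3). The exact permutation test over the 4 treatments gave p = 0.000584. Unthinned, they were 11.4, 36.0, 5.16 and 27.4%, with more UMIs per cell after SHP099 (medians of 4366 to 5397 per mouse against 2355 to 2972 in vehicle). The alveolar macrophage markers of the cluster summed to 4307 ± 94.5 CPM in vehicle mice, 5655 ± 320 after SHP099, 4922 ± 188 after SX682 and 5448 ± 1235 after the combination. These markers were higher after SX682 than in vehicle, whereas Cxcr1 was lower. The neutrophil markers summed to 995 ± 110, 822 ± 376, 550 ± 202 and 1440 ± 333 CPM in the same order.

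Cxcr2 in the same cells passed in none of 6 comparisons in edgeR, also with the unadjusted p. It was 20.8 ± 10.3 CPM in vehicle mice, 27.2 ± 19.01 after SHP099, 19.7 ± 9.32 after SX682 and 21.7 ± 7.47 after the combination, and log2 fold changes ran from -0.28 ± 0.43 (SE, SX682, adjusted p = 0.908) to 0.11 ± 0.40 (combination against SX682, adjusted p = 0.915). Rufy4, whose levels over clusters were most like those of Cxcr1, did not follow it over treatments. Vehicle mice had 47.6 ± 0.476 CPM, SHP099 mice 30.2 ± 2.28, SX682 mice 36.7 ± 7.89 and combination mice 36.6 ± 4.28 (SD, n = 3). It fell by 0.62 ± 0.19 after SHP099 (log2, SE, edgeR adjusted p = 0.0490), where Cxcr1 rose, and gave -0.02 ± 0.18 for the combination against SX682 (adjusted p = 0.967).

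**Figure D4:**
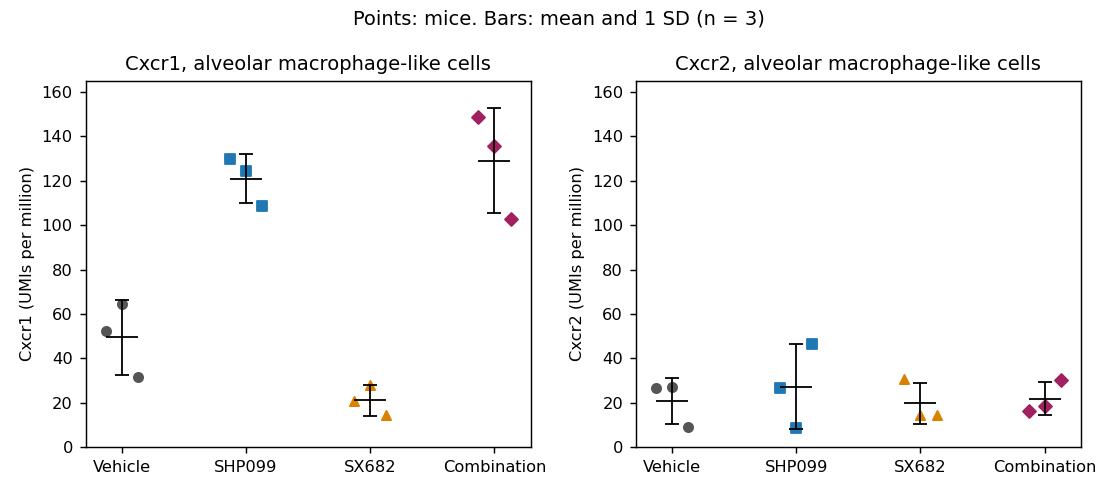
Cxcr1 (left) and Cxcr2 (right) per mouse in alveolar macrophage-like cells of cluster 26, in CPM on the same scale; bars give the mean and 1 SD of 3 mice. Cxcr1 points of SX682 mice (14.2 to 28.1 CPM) lie below vehicle (31.4 to 64.6) and those of SHP099 and combination mice above 100, while Cxcr2 points overlap in all groups.

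In cluster 25, macrophage-like cells led by Gpnmb, both receptors were low and rose with the combination over SX682. These tests were also added after the values were seen. Cxcr1 had 20.6 ± 1.95 CPM in combination, 6.05 ± 2.71 in SX682, 12.3 ± 8.22 in SHP099 and 11.01 ± 2.25 in vehicle mice. The combination exceeded SX682 by 1.91 ± 0.41 (log2, SE, edgeR adjusted p = 0.00646) and gave 1.05 ± 0.38 against vehicle (adjusted p = 0.129). SHP099 gave 0.33 ± 0.41 (adjusted p = 0.729) and SX682 -0.87 ± 0.42 (adjusted p = 0.669). Cxcr2 had 1.69 ± 0.863 CPM in vehicle mice (6, 1 and 3 UMIs), 8.37 ± 4.54 after SHP099 (17, 6 and 6), 3.78 ± 1.45 after SX682 (10, 8 and 4) and 10.7 ± 4.41 after the combination (12, 15 and 8). With SHP099 it rose by 2.33 ± 0.54 (adjusted p = 0.0152) and with the combination by 2.55 ± 0.53 (adjusted p = 0.00759), and it gave 0.97 ± 0.58 after SX682 (adjusted p = 0.770). The combination exceeded SX682 by 1.58 ± 0.46 (adjusted p = 0.0421). Leaving out vehicle mouse 1 or 2 or SHP099 mouse 1 ended the SHP099 call (adjusted p up to 0.149). The call against SX682 ended in 9 of 12 fits that left out a mouse (adjusted p up to 0.165). Genes called in this cluster were 6.69% for SHP099, 0.422% for SX682 and 5.38% for the combination against vehicle, and 7.75% for the combination against SX682. In the order vehicle, SHP099, SX682, combination, S100a8 and S100a9 summed to 712, 1220, 341.5 and 1224 CPM in this cluster. The alveolar macrophage markers summed to 877, 2042, 799.6 and 2219 CPM in that order. Both sums were above vehicle after SHP099 and the combination, as was Cxcr2, whereas the Cxcr1 groups of SHP099 and vehicle overlapped. Mean Cxcr2 was also above vehicle after SX682, where S100a8 and S100a9 were below it. The part of these transcripts in both results was not tested.

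Summed over all cells of a mouse, both receptors were higher after SHP099 and after the combination. Vehicle mice had 18.7, 14.4 and 10.7 CPM of Cxcr2, SHP099 mice 42.6, 43.2 and 42.3, SX682 mice 20.99, 23.2 and 7.41, and combination mice 37.9, 31.95 and 41.2. SHP099 and combination mice lay above all others. The rise was 1.58 ± 0.32 with SHP099 (log2, SE, edgeR adjusted p = 0.00238) and 1.32 ± 0.31 with the combination (adjusted p = 0.0130), against 0.20 ± 0.31 after SX682 (adjusted p = 0.715). Without vehicle mouse 3 the combination missed the threshold (adjusted p = 0.0542). Over all genes 47.0% were called for SHP099, 4.03% for SX682 and 24.7% for the combination. Neutrophils were 13.03 ± 3.11% of vehicle cells, 30.75 ± 4.69% after SHP099, 14.97 ± 7.64% after SX682 and 26.5 ± 4.07% after the combination. With neutrophils removed, the SHP099 value of Cxcr2 was 0.11 ± 0.34 (edgeR adjusted p = 0.826) and the combination value 0.86 ± 0.33 (adjusted p = 0.0924).

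Cxcr1 over all cells was 3.64 ± 1.54 CPM in vehicle mice, 14.98 ± 4.99 after SHP099, 2.56 ± 1.28 after SX682 and 22.5 ± 3.03 after the combination. The rise was 2.08 ± 0.37 with SHP099 (log2, SE, edgeR adjusted p = 0.00135) and 2.61 ± 0.37 with the combination (adjusted p = 0.00154), against -0.52 ± 0.39 after SX682 (adjusted p = 0.407). The combination exceeded SX682 by 3.13 ± 0.39 (adjusted p = 0.000994), where 9.43% of genes were called. Cluster 26 was 6.30 ± 0.961% of vehicle cells, 5.22 ± 1.31% after SHP099, 7.65 ± 2.13% after SX682 and 11.4 ± 2.24% after the combination. Without cluster 26 alone, the SHP099 value of Cxcr1 was 1.105 ± 0.35 (edgeR adjusted p = 0.0229), and without neutrophils alone 2.235 ± 0.40 (adjusted p = 0.00164). The combination values were 1.98 ± 0.34 (adjusted p = 0.00382) and 2.69 ± 0.39 (adjusted p = 0.00216). Without cluster 26 and neutrophils, the SHP099 value was 0.78 ± 0.39 (edgeR adjusted p = 0.135) and the combination value 1.70 ± 0.38 (adjusted p = 0.0166).

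In the bulk libraries of sorted Epcam+ cells both receptors were low, and neither passed. Cxcr2 had 180, 140 and 144 reads in vehicle and 363, 243 and 96 in SHP099 libraries of 51939301 to 73361005 reads, or 2.96 ± 0.441 and 3.83 ± 2.39 reads per 1000000 (CPM, SD, n = 3). The groups overlapped, and the log2 fold change was 0.34 ± 0.49 (SE, edgeR adjusted p = 0.873). Cxcr1 had 6, 5 and 0 reads in vehicle and 34, 19 and 26 in SHP099 libraries, or 0.0700 ± 0.0616 and 0.415 ± 0.133 CPM. All 3 SHP099 libraries were above all 3 vehicle libraries, but 2.51 ± 0.85 did not pass (SE, edgeR adjusted p = 0.421, unadjusted 0.0196), in a test that called 0.113% of 20314 genes. Such a separation of 3 libraries from 3 gives an exact permutation p of 0.1 at the smallest. In CPM per kilobase of exon, Cxcr2 stood at 0.869 to 1.14 in vehicle and Cxcr1 at 0 to 0.0775, and in SHP099 libraries at 0.429 to 1.99 and 0.216 to 0.381.

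Sorted cells can include other cells, and in bulk RNA fewer cells of a type and less RNA per cell cannot be told apart. Neutrophil markers summed to 116, 92.5 and 107.5 CPM in vehicle and 111, 120 and 54.0 in SHP099 libraries, so the SHP099 library lowest in Cxcr2, replicate 3, was also lowest in these. Alveolar macrophage markers were lower where Cxcr1 was higher, at 87.7 ± 19.96 in vehicle and 52.0 ± 5.98 in SHP099 libraries, and macrophage markers were at 583 ± 15.3 and 302 ± 82.3. The 5 tumour epithelium markers summed to 11470 ± 786 and 9804 ± 1135. The part of these cells in the receptor values was not tested.

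**Figure D5:**
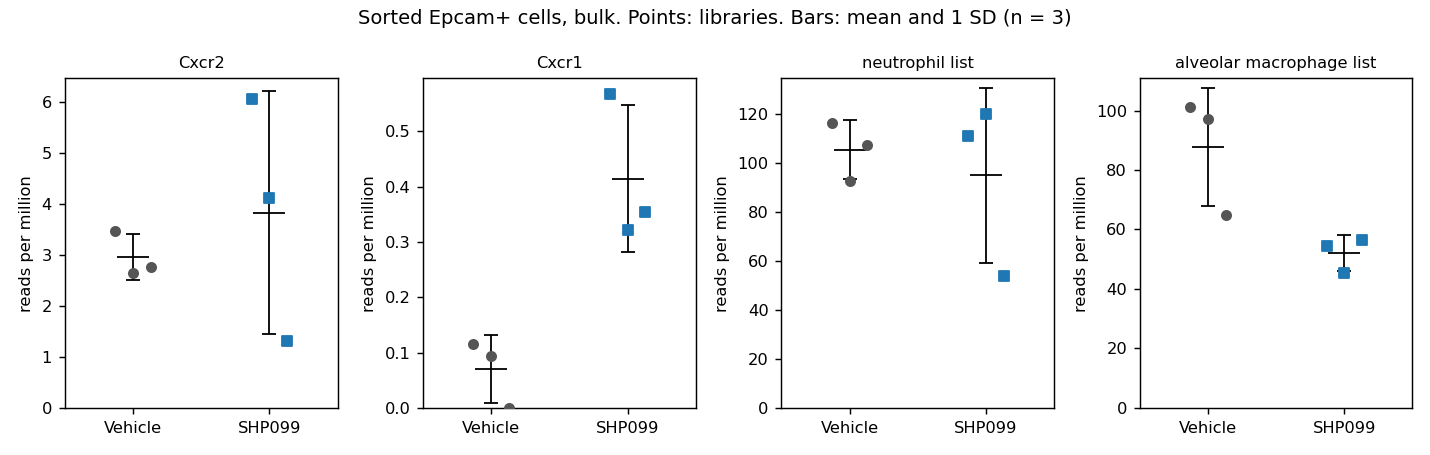
Read level (CPM) in each bulk library of sorted Epcam+ cells for Cxcr2, Cxcr1 and the summed neutrophil and alveolar macrophage markers; bars give the mean and 1 SD of 3 libraries. Cxcr1 groups do not overlap, Cxcr2 groups do, and alveolar macrophage markers are lower in all SHP099 libraries than in vehicle.

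Among genes around the receptors, ligand genes fell in neutrophils. The neutrophil values of this and the following gene lists are sums over all states, whose shares differed by treatment. Changes in state shares and in levels per cell were therefore not told apart. Cxcl1, a neutrophil attractant, fell in every treatment, from 110 ± 15.9 CPM in vehicle to 31.2 ± 7.43 after SHP099 (log2 -1.93 ± 0.28, edgeR adjusted p = 0.000124), 32.04 ± 25.5 after SX682 (-1.58 ± 0.28, adjusted p = 0.00766) and 49.1 ± 7.14 with both drugs (-1.24 ± 0.26, adjusted p = 0.00636). The falls were not additive on the log2 scale, with an interaction of 2.27 ± 0.40 (SE, adjusted p = 0.00313). Tumour epithelium markers within neutrophils summed to 397.5 ± 53.8 CPM in vehicle mice, 78.2 ± 25.7 after SHP099, 179 ± 22.2 after SX682 and 215 ± 17.1 with both drugs (5 genes), and their part in the Cxcl1 values was not tested. Cxcl2, the most abundant of the ligand transcripts tested at 27223 ± 1487 CPM in vehicle, fell by 0.42 ± 0.13 after SHP099 (adjusted p = 0.0347). Cxcl3 fell by 0.76 ± 0.19 after SHP099 (adjusted p = 0.00914) and by 0.63 ± 0.18 with the combination (adjusted p = 0.0472). Cxcl5, Cxcl15 and Ppbp had too few UMIs to be tested. Of the 3 ligands tested of 6, 3 fell after SHP099, 1 after SX682 and 2 after the combination, beside 13.1, 0.508 and 6.45% called over all genes, with medians of -0.76, -0.61 and -0.63 against 0.01, -0.01 and 0.01 over all genes. In sorted Epcam+ bulk cells Cxcl5 rose by 1.68 ± 0.17 after SHP099 against vehicle (edgeR adjusted p = 0.0313). Cxcl15, expressed by lung epithelium, fell by 3.22 ± 0.38 in the same test (adjusted p = 0.0415). The other 4 ligands of the list did not pass, and over all 20314 genes this test called 0.113%.

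Of 23 signalling partners in neutrophils, 1 rose and 2 fell after SHP099, where 13.1% of all genes tested were called. None passed after SX682 (0 in edgeR, 0 also at an unadjusted p under 0.05), where 0.508% of all genes were called. With the combination 2 rose and 1 fell, beside 6.45% of all genes. Vav1, an exchange factor for Rac, rose by 0.81 ± 0.19 (SE, edgeR adjusted p = 0.00788) and 0.69 ± 0.20 (adjusted p = 0.0380) with SHP099 and the combination. In the same order Gnb2, a G protein β subunit, gave -0.45 ± 0.11 (adjusted p = 0.0119) and -0.51 ± 0.11 (adjusted p = 0.0101), Rac2, the neutrophil Rac, fell by 0.41 ± 0.10 after SHP099 (adjusted p = 0.0132), and Gnb1 rose by 0.40 ± 0.12 with the combination (adjusted p = 0.0497). Of 11 desensitisation genes, 1 passed after SHP099, beside 13.1% of all genes: Rgs2, which shortens G protein signals, rose by 0.54 ± 0.13 (adjusted p = 0.00854). For the combination against SX682, 1 passed beside 3.72% of all genes: Grk6, a receptor kinase, gave -0.72 ± 0.17 (adjusted p = 0.0197). None passed in the other neutrophil comparisons.

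Other guidance receptors in neutrophils passed the test after SHP099 and the combination. Cxcr4, which opposes CXCR2 in marrow retention, had 226 ± 31.6 CPM in vehicle, 492 ± 24.7 after SHP099, 298 ± 42.7 after SX682 and 534 ± 62.1 after the combination. The rise was 0.99 ± 0.13 with SHP099 (log2, SE, edgeR adjusted p = 8.06e-05) and 1.12 ± 0.13 with the combination (adjusted p = 8.46e-05). Cd44, an adhesion receptor for hyaluronan, rose by 0.57 ± 0.12 and 0.62 ± 0.12 (adjusted p = 0.00440 and 0.00476). Fpr1, the formyl peptide receptor, gave -0.90 ± 0.21 and -0.81 ± 0.21 (adjusted p = 0.00780 and 0.0254), and C5ar1, the C5a receptor, fell by 0.53 ± 0.15 after SHP099 (adjusted p = 0.0215). Of these 15 genes, 2 rose and 2 fell after SHP099, 0 passed after SX682 (edgeR, 2 at an unadjusted p under 0.05), and 2 rose and 1 fell after the combination. Over all genes tested, 13.1, 0.508 and 6.45% were called in the same order.

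Of 21 maturation genes tested of 22, 2 rose and 5 fell after SHP099, 1 fell after SX682, and 7 fell after the combination, beside 13.1, 0.508 and 6.45% called over all genes. These sums cover all states, and N6, led by Retnlg, was 30.05% of vehicle neutrophils, 13.6% after SHP099, 21.6% after SX682 and 8.31% after the combination. N4, led by Camp, Ngp and Lcn2, was 13.8 ± 6.65, 11.9 ± 3.02, 10.8 ± 7.21 and 8.1 ± 5.05% in the same order (SD, n = 3). Fewer cells of these states and lower levels per cell were not told apart for these genes. Chil3, made by young neutrophils, fell by 2.33 ± 0.40 after SHP099 (SE, edgeR adjusted p = 0.000690), by 1.81 ± 0.40 after SX682 (adjusted p = 0.0459) and by 2.62 ± 0.40 with the combination (adjusted p = 0.000623). Chil3 was also a leading gene of the alveolar macrophage-like cluster 26, and the part of RNA from those cells in its neutrophil values was not tested. Mmp8, a granule collagenase, gave -2.02 ± 0.41 and -2.35 ± 0.42 after SHP099 and the combination (adjusted p = 0.00249 and 0.00216), and Retnlg -1.66 ± 0.26 and -2.43 ± 0.26 (adjusted p = 0.000254 and 3.53e-05). Ngp, a granule protein of young neutrophils, fell by 3.29 ± 0.76 with the combination (adjusted p = 0.0116). Siglecf rose by 0.67 ± 0.17 and Csf2rb, a receptor subunit for GM-CSF, by 0.64 ± 0.12 after SHP099 (adjusted p = 0.0124 and 0.00127).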

How the data were processed

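Bulk counts were deposited as raw reads per gene, and single-cell counts as raw UMIs per gene and cell; neither was normalized. Per the submitters' processing notes, STAR, Picard, HTSeq, DESeq2, bedtools and R 3.3.0 served on mm10, and Cell Ranger and bcl2fastq are also named; other versions are not stated in the sources used here. Per the labels, bulk libraries were stranded and counted without strand, and single-cell libraries came from a 10x V(D)J kit. Cluster and mouse of each cell are the authors' own. Every cell in the matrix had 500 UMIs or more, and mitochondrial UMIs did not exceed 20%. Doublets were not called here, and how the authors treated them is not given in the sources used here.

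UMIs were summed per mouse over a class of cells. Genes that passed filterByExpr were tested two-sided by the quasi-likelihood method of edgeR 4.0.16 with TMM factors (R 4.3.3, limma 3.58.1), all 4 treatments in 1 fit. A call is a Benjamini-Hochberg adjusted p under 0.05 over all genes tested. TMM factors ran from 0.888 to 1.06 in neutrophils, and replicates differed by a biological coefficient of variation of 30.4% in bulk, 12.3% in neutrophils and 10.8% in cluster 26. Nothing says that bulk libraries came from separate mice, so their p-values measure the spread between these libraries. Shares were thinned to 1000 UMIs per cell and tested by exact permutation of mice (F on logit shares, 0.5 cells added). GENCODE vM21 gave gene positions, and Python 3.11.15 with scipy 1.17.1, pandas 2.3.3 and numpy 2.4.6 did the rest. Scripts were tested on simulated data. Levels of a class use mice with at least 20 cells; treatment values use all 12.

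The members and lists were chosen with earlier results of these data known. Named genes are both receptors, some of the called genes of each pathway list, and the 3 tested ligands. The genes most like a receptor by Pearson's r are also named (at least 50 CPM, or 5 CPM for Cxcr1, prior count 1). Not every called gene of the lists is named, nor every comparison in which list genes were called. Tests in clusters 25 and 26, those of Cxcr1 in all cells, those without some cells and those of Rufy4 were added after values were seen. Results were recomputed with DESeq2 1.42.0, with its size factors in edgeR, with no filter, with the replicate number as a block, equal numbers of cells of each state, other thinning depths, untransformed shares and leaving out each library or mouse. The T cell table was not used here.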

Additional observations from a re-analysis of the deposited data

Results flagged for a closer look

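The effect of SHP099 on Cxcr1 in alveolar macrophage-like cells of cluster 26 differed with and without SX682, by an interaction of 1.32 ± 0.29 on the log2 scale (SE, edgeR adjusted p = 0.0376). Combination mice stood 2.56 above SX682 mice and SHP099 mice 1.24 above vehicle mice. The cluster was chosen after its values were seen, and the difference did not pass in 9 of 12 fits that left out 1 mouse. DESeq2 gave no adjusted p for it.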

How the results depend on the processing

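Of 997 recomputed values of 64 results, 901 kept their direction and their side of the threshold. Another 18 DESeq2 fits gave no adjusted p and were left out. Among them were Cxcr1 in neutrophils for the combination against SX682 and the Cxcr1 interaction in cluster 26. Every call of either receptor in cluster 25 was also among them, so these calls were not checked with DESeq2. The cause of the changes below was not tested, except where fewer cells or samples entered. With every detected gene tested, Cxcr1 passed in neutrophils for the combination against SHP099 (1.08) and the interaction (2.14), and in cluster 25 for the combination against vehicle (1.03). The same setting turned Cxcr2 in N1 after SHP099 (0.0872) and the combination (0.0266), in N5 after SHP099 (0.280) and the combination (0.385), and in N6 after SX682 (-0.0536), all far from the threshold. DESeq2 turned the last (-0.0117). With equal cells of each state, Cxcr2 for the combination against SX682 turned to 0.0534, and Cxcr1 was too low to test. Untransformed shares gave an adjusted p of 0.045 for Cxcr1 in neutrophils. Without neutrophils, Cxcr2 over all cells gave 0.107, -0.169 and 0.861 for SHP099, SX682 and the combination, and without cluster 26 as well it gave -0.149, -0.2145 and 0.856. Cxcr1 after SHP099 then gave 0.781.

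No pairing by replicate number was seen, but 3 samples per group could not show its absence. Same-numbered deviations correlated at -0.0264 to 0.0250 over 3 pairs in bulk and -0.124 to 0.186 over 18 in neutrophils. In cluster 26 they correlated at -0.0648 to 0.149 over 18, and no differently numbered pairs were set beside them. With the number as a replicate block, Cxcr2 turned in N5 for the combination (0.0295) and in N6 for SX682 (-0.0116), with no call changed. Bulk Cxcr2 was 0.129 and Cxcr1 2.71 in that fit. Defining neutrophils by the whole-series clusters gave the same cells.

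Leaving out each library or mouse gave these lowest and highest log2 values. Bulk Cxcr2 ran from -0.152 (without SHP099 library 1) to 0.767. In neutrophils, Cxcr2 ran from -0.0934 to 0.187 for SHP099, -0.14 to 0.0809 for the combination against SX682 and -0.228 to 0.0540 for the interaction. Cxcr1 there ran from -0.653 to 0.607 for SHP099, 1.63 to 2.08 for the combination against SX682 and 1.21 to 2.47 for the interaction, which passed without vehicle mouse 2 (adjusted p = 0.0431). Over all cells, Cxcr2 ran from -0.0695 to 0.521 for SX682 and 1.15 to 1.53 for the combination. In cluster 25, Cxcr1 ran from -0.322 to 0.774 for SHP099, and Cxcr2 from 1.71 to 2.69 for SHP099 and 1.32 to 1.91 for the combination against SX682. In cluster 26, Cxcr1 ran from -1.54 to -1.04 for SX682, -0.00364 to 0.182 for the combination against SHP099 and 1.12 to 1.61 for the interaction. Cxcr2 there ran from -0.305 to 0.515 for SHP099, -0.741 to 0.0342 for SX682, -0.408 to 0.000948 for the combination, -0.688 to 0.140 for the combination against SHP099, -0.202 to 0.576 against SX682 and -0.413 to 0.487 for the interaction. In the states, Cxcr2 ran in N1 from -0.145 to 0.0645, -0.286 to 0.156 and -0.170 to 0.00321 for SHP099, SX682 and the combination. It ran from -0.287 to 0.194 in N2 for the combination, -0.0652 to 0.327 in N3 and -0.112 to 0.237 in N4 for SX682. In N5 it ran from -0.246 to 0.104 for SHP099 and -0.187 to 0.157 for the combination, and in N6 from -0.141 to 0.0806 for SX682 and -0.395 to 0.119 for the combination. The adjusted p of the Cxcr1 share of neutrophils ran from 0.00195 to 0.351, and passed without vehicle mouse 1 or 2.

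Counts of called genes moved by over 1.5 times in the following. In bulk, 23 became 594 in DESeq2 and 283 with no filter. In neutrophils, no filter gave 137 against 38 for SX682, 282 against 88 for the combination against SHP099 and 276 against 132 for the interaction. Equal cells of each state gave 325 against 977 for SHP099 and 131 against 482 for the combination, 16 and 134 against 88 and 278 for the combination against SHP099 and SX682, and 27 against 132 for the interaction. In cluster 26, no filter gave 226, 160 and 197 against 68, 15 and 45 for SX682, the combination against SHP099 and the interaction, and the replicate block 26 against 15 for the second. In cluster 25 no filter gave 190 against 36 for SX682. Over all cells, 593 for SX682 became 1701 in DESeq2, 328 with the block, 383 without neutrophils and 295 without cluster 26 as well, which also left 2219 against 3635 for the combination and 862 against 1386 for the combination against SX682. In the states, DESeq2 gave 94, 7 and 44 against 180, 14 and 94 in N2 for SHP099, SX682 and the combination, 259 against 407 in N3 for SHP099, 0 against 1 in N4 for SX682, and 132 and 21 against 289 and 72 in N6 for SHP099 and the combination. For SX682, no filter gave 18, 38, 41, 25, 7 and 24 in N1 to N6 against 7, 14, 21, 1, 3 and 15. It gave 183 against 101 in N3 and 37 against 9 in N5 for the combination, and 137 against 289 in N6 for SHP099. The block gave 11 against 7 in N1 for SX682 and 21 against 33 in N5 for SHP099. UMI counts limit Cxcr1 in neutrophils, where single mice had as few as 2.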
